A study of Mus musculus with 10 samples.

Results

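Chemokine receptors of monocyte trafficking were followed through 6 genes, Ccr2, Cx3cr1, Ccr1, Cxcr4, Ccr7 and Ccrl2, out of the 48526 gene identifiers of the count table. They were taken by symbol, and each symbol matched 1 Ensembl identifier. All 6 had reads in all 10 libraries and all 6 passed the filter on low counts, which kept 13334 genes. RNA was sequenced from cells sorted by flow cytometry from the aorta of mice and labelled as endothelial. The stressed group (S1 to S5) came from mice put under acute mental stress for 3 h a day on 3 days in a row, and the non-stressed group (NS1 to NS5) from mice without it. Both groups carry the strain label ApoE, and the labels used here give no further genotype, age or pooling of animals. Whether the replicates are separate animals is not stated. The p-values therefore reflect only how far these samples scatter, which may be technical.

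Chemokine receptors are G protein-coupled receptors on the surface of leukocytes that read gradients of small secreted proteins, the chemokines. They act mostly through Gi proteins, which drive cell polarity and movement, and they are switched off by receptor kinases and arrestins. In the mouse, Ccr2 brings classical, Ly6C-high monocytes out of the bone marrow and into inflamed tissue, whereas Cx3cr1 is highest on the non-classical monocytes that patrol the vessel wall. Cxcr4 holds leukocytes in the bone marrow.

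The libraries held between 18020220 and 38237346 counts. Levels are given as CPM, a gene's counts in every 1000000 of its library. A gene at 0 reads could still have had 0.0785 to 0.167 CPM, the level of 3 counts, a limit for counting error only. The label was checked against endothelial markers. Cdh5, the cadherin of endothelial junctions, lay between 0 and 0.994 CPM. Kdr, the main VEGF receptor, lay between 0 and 2.35 CPM, and Nos3, the endothelial nitric oxide synthase, between 0 and 0.452 CPM. Tek, Cldn5 and Emcn had 0 reads in every library. Of the 12 endothelial markers, 9 had reads, led by Flt1, Vwf and Pecam1, and their summed level was 74.4 to 163 CPM in the non-stressed and 85.0 to 132 CPM in the stressed libraries. The 11 classical monocyte genes summed to 10210 to 14550 CPM in the non-stressed and 15780 to 18990 CPM in the stressed libraries. The sorted cells therefore carried little of the defining endothelial RNA, and they are called the sorted cells below. In such bulk samples, fewer cells of a type and less RNA per cell cannot be told apart.

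For none of the 6 receptor genes did the difference between stressed and non-stressed libraries pass the test. The edgeR quasi-likelihood test with Benjamini-Hochberg adjustment called 0 of 6 at 0.05, against 0.0075% of all genes tested, which was 1 gene. At an unadjusted p under 0.05 it again counted 0 of 6, against 5.53% of all genes. DESeq2 called 0 of 6 as well, against 0.129% of its genes. The 2 groups overlapped for all 6 genes, while they did not overlap for 1.11% of all genes. Fitted values were above 0 for 3 of the 6 and below 0 for the other 3, with a median log2 fold change of 0.01 beside 0.00 for all genes, of which 50.9% were above 0.

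**Figure D1:**
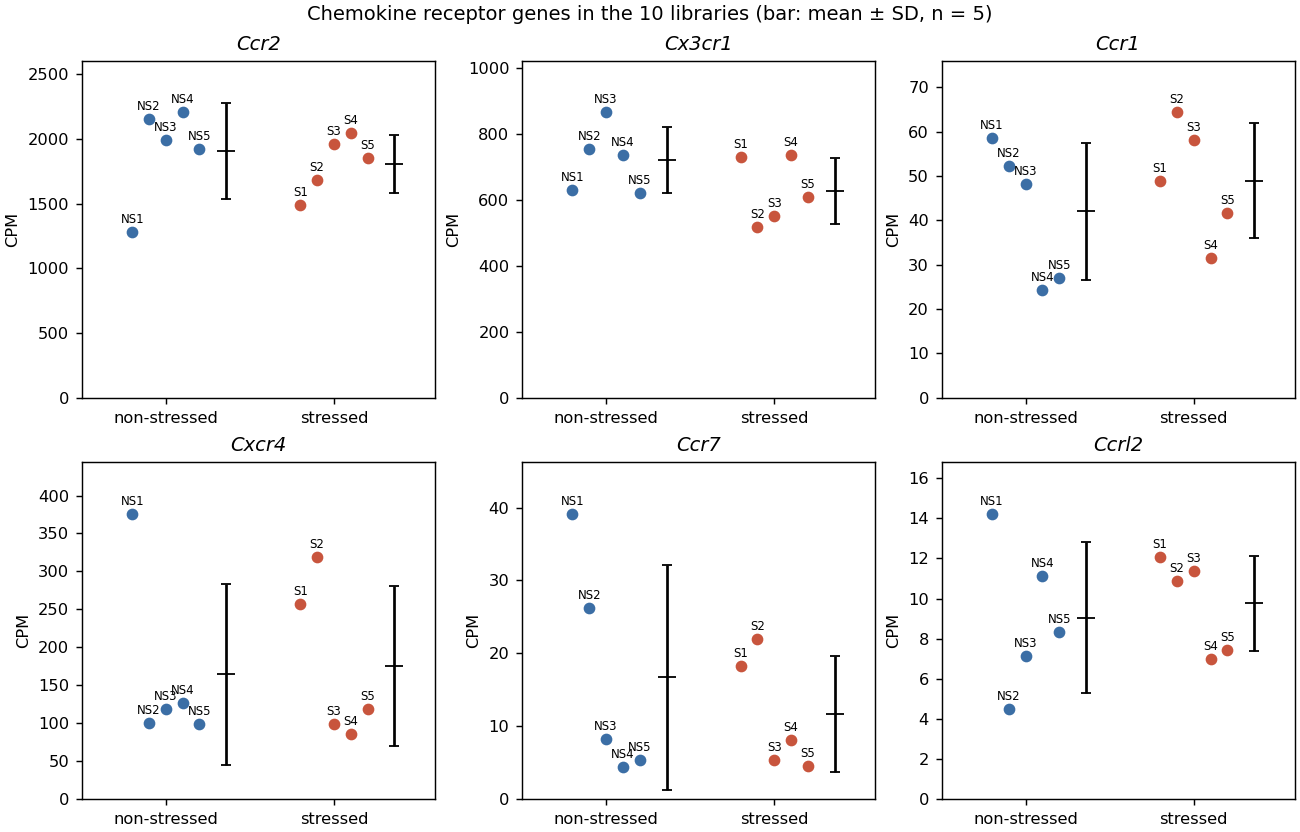
CPM of each receptor gene (vertical axes, from 0) in each library, non-stressed in blue and stressed in red, with the mean and SD of 5 libraries as a bar. For Ccr2 and Cx3cr1 the highest library exceeded the lowest by 1.73-fold and 1.67-fold. For Cxcr4 and Ccr7, 3 and 4 libraries taken from both groups lay far above the rest.

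The promoters of the 6 genes are shown for a pair that differ in base composition and in spread across libraries, Cxcr4 and Ccr1. RefSeq gave a promoter for 5 of the 6 genes. Each run holds the 250 bases before the start of transcription on GRCm38.p6, written 5′ to 3′ on the gene's own strand. Capitals mark the motifs found among 6 that were searched on both strands.
Cxcr4 (chr1:128592300-128592549, minus strand): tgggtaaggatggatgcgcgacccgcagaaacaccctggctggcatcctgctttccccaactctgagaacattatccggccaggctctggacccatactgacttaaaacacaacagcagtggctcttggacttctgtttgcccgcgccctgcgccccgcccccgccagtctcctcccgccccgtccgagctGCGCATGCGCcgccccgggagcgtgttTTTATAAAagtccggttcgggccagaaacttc
Ccr1 (chr9:123968693-123968942, minus strand): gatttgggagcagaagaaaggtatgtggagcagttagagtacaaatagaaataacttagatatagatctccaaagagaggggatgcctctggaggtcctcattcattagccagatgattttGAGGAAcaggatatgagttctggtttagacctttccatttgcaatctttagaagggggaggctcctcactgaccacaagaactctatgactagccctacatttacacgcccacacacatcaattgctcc
The Cxcr4 window was 61.2% G or C and held 19 CG dinucleotides, and the Ccr1 window was 43.6% G or C and held 1. The medians over 32536 promoters were 52.4% and 6. The capitals in Cxcr4 first mark the palindrome bound by NRF1, 59 to 50 bases before the start, which 0.784% of promoters held. They also mark TATAAA, the TATA box, 30 to 25 bases before the start, with an overlapping match on the other strand 32 to 27 bases before it. TATAAA occurred in 12.3% of promoters. The capitals in Ccr1 mark GAGGAA, the core bound by ETS factors such as PU.1, 129 to 124 bases before the start, which 23.4% of promoters held. The other letters searched were CACGTG (an E-box), TTCNNNGAA (a STAT palindrome) and the palindrome of the glucocorticoid receptor, held by 6.04%, 7.04% and 0.00922% of promoters. These 3 did not occur in the windows of the 5 genes. A match describes the letters in a window and is not a measured site.

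Ccr2, the receptor of Ccl2 and related chemokines (ENSMUSG00000049103, chr9:124101950-124113557, plus strand, mm10), was the most abundant of the 6. Non-stressed libraries NS1 to NS5 had 1277, 2155, 1989, 2204 and 1918 CPM. Stressed libraries S1 to S5 had 1492, 1680, 1958, 2045 and 1850 CPM. All 5 stressed values lay inside the non-stressed range, and NS1, S1 and S2 were the lowest of the 10. The means were 1909 ± 372 CPM (SD, n = 5) and 1805 ± 222 CPM (SD, n = 5). The log2 fold change was -0.08 (SE 0.128, 95% interval -0.35 to 0.20), with an edgeR adjusted p of 0.981. That interval runs from 0.785-fold to 1.15-fold.

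Cx3cr1, the receptor of the membrane-bound chemokine fractalkine (ENSMUSG00000052336, chr9:119901616-120069879, minus strand), had 632, 755, 866, 736 and 621 CPM in NS1 to NS5. In S1 to S5 it had 730, 518, 552, 735 and 609 CPM. The groups overlapped, with 3 of 5 stressed libraries below all non-stressed ones and S1 and S4 among the higher values. The means were 722 ± 101 CPM and 629 ± 100 CPM (SD, n = 5 each). The log2 fold change was -0.20 (SE 0.112, 95% interval -0.43 to 0.04), with an unadjusted p of 0.104 and an adjusted p of 0.940 in the edgeR test. Its annotated span overlaps the spans of other genes, of which Wdr48 and Csrnp1 had the most reads (15275 and 7662 in all libraries, beside 186972 for Cx3cr1). Wdr48 overlaps it in part and on the opposite strand, and Csrnp1 lies inside it on the same strand.

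Ccr1, a receptor of Ccl3, Ccl5, Ccl6 and Ccl9 on myeloid cells (ENSMUSG00000025804, chr9:123962124-123968692, minus strand), had 58.6, 52.2, 48.3, 24.4 and 27.1 CPM in NS1 to NS5. Its values in S1 to S5 were 48.9, 64.3, 58.2, 31.6 and 41.7 CPM. NS4 and NS5 were lowest, and 1 stressed library, S2, lay above all non-stressed ones. The means were 42.1 ± 15.4 and 48.9 ± 12.99 CPM (SD, n = 5 each). The log2 fold change was 0.22 (SE 0.240, 95% interval -0.29 to 0.73, edgeR adjusted p 0.961).

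Cxcr4, the receptor of Cxcl12 (ENSMUSG00000045382, chr1:128588199-128592293, minus strand), divided the libraries in a way that the groups did not. NS1 to NS5 had 376, 100, 119, 127 and 99.3 CPM, and S1 to S5 had 257, 318.5, 99.3, 85.0 and 118 CPM. NS1, S1 and S2 lay at 257 CPM or above, and the other 7 at 127 CPM or below. The means were 164 ± 119 and 176 ± 105 CPM (SD, n = 5 each), and the log2 fold change was 0.10 (SE 0.409, 95% interval -0.77 to 0.98, edgeR adjusted p 0.996). Its SD within groups was 0.82 on the log2 scale, more than that of 97.9% of the genes tested. The 3 libraries highest in Cxcr4 were also the 3 lowest in Ccr2.

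Ccr7, the receptor of Ccl19 and Ccl21 that guides dendritic cells and lymphocytes to lymph nodes (ENSMUSG00000037944, chr11:99144196-99155077, minus strand), was low and the most variable of the 6. NS1 to NS5 had 39.2, 26.3, 8.17, 4.44 and 5.39 CPM, and S1 to S5 had 18.3, 21.9, 5.33, 8.09 and 4.46 CPM. NS1, NS2, S1 and S2 were high and the other 6 were at 8.17 CPM or below. The means were 16.7 ± 15.4 and 11.6 ± 7.97 CPM (SD, n = 5 each), with a log2 fold change of -0.52 (SE 0.581, 95% interval -1.76 to 0.72, edgeR adjusted p 0.963). Its within-group SD of 1.12 on the log2 scale exceeded that of 99.6% of genes.

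Ccrl2, an atypical receptor that binds chemerin without signalling through G proteins (ENSMUSG00000043953, chr9:111054486-111057519, minus strand), had 14.2, 4.47, 7.12, 11.1 and 8.31 CPM in NS1 to NS5. In S1 to S5 it had 12.1, 10.9, 11.4, 6.99 and 7.44 CPM. NS1 was highest and NS2 lowest, so all 5 stressed values lay between non-stressed ones. The log2 fold change was 0.11 (SE 0.288, 95% interval -0.50 to 0.73, edgeR adjusted p 0.990).

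**Figure D2:**
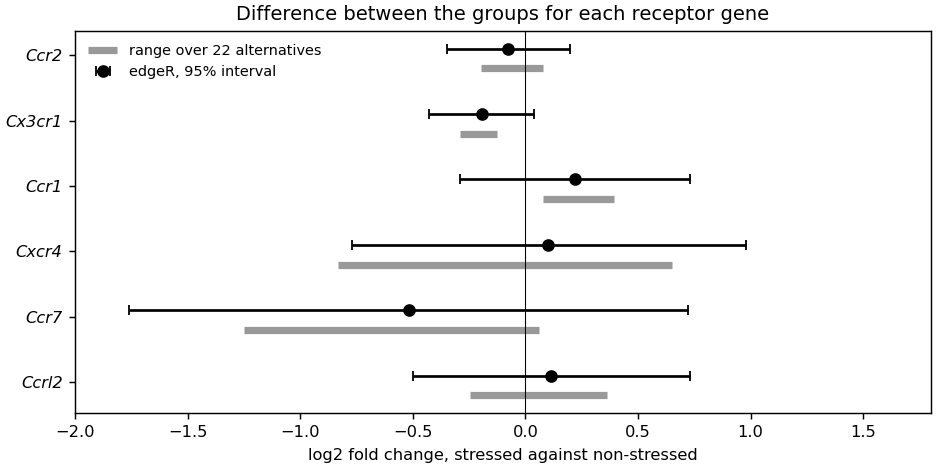
Log2 fold change of stressed against non-stressed libraries for each receptor gene (points) with its 95% interval from edgeR (black lines), and the range of the fold change over 22 other settings (grey bars). All 6 intervals hold 0. The intervals were narrowest for Ccr2 and Cx3cr1 and widest for Ccr7, from -1.76 to 0.72.

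Reads of Ddx3y, a gene on the Y chromosome, split each group into 3 libraries with over 100 reads and 2 without. The former had 2278 (S3) to 4360 (NS2) reads, and NS1, NS5, S1 and S5 had 0. Between 3 stressed and 3 non-stressed libraries with Ddx3y reads, the difference of mean log2 values was -0.40 for Cx3cr1, and between 2 and 2 without them it was 0.10. The sign also differed between these library sets for Ccr2 (-0.16 and 0.10), Cxcr4 (0.27 and -0.14) and Ccrl2 (0.37 and -0.17). Ccr1 gave 0.31 and 0.19, and Ccr7 gave -0.02 and -0.63. The difference between the library sets was not tested.

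Levels were ordered per length as RPKM (CPM divided by kilobases of exon). The order was set by the means over the same 10 libraries, so the p-values of neighbours were not independent of it. Ccr2 came first at 274.7 ± 43.5 RPKM (SD, n = 10), followed by Cx3cr1 at 149.9 ± 23.7 RPKM and Cxcr4 at 94.0 ± 58.7 RPKM. Ccr1 followed at 16.1 ± 4.91 RPKM, Ccr7 at 7.16 ± 5.996 RPKM and Ccrl2 at 3.62 ± 1.15 RPKM. Ccr2 exceeded Cx3cr1, Cxcr4 exceeded Ccr1 and Ccr1 exceeded Ccr7 in 10 of 10 libraries each, with an adjusted p of 0.00326 in a two-sided exact sign-flip permutation test over 5 neighbour pairs. Cx3cr1 exceeded Cxcr4 in 8 of 10 libraries (adjusted p 0.0220, same exact test), and in NS1 Cxcr4 was the highest of the 6. Ccr7 and Ccrl2 did not differ beyond their spread, with Ccr7 higher in 6 of 10 libraries (adjusted p 0.147, same exact test).

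The ratio of Ccr2 to Cx3cr1 within a library was 1.39 ± 0.267 on the log2 scale in the non-stressed and 1.53 ± 0.306 in the stressed libraries (SD, n = 5 each). NS1 and S1 had the lowest ratios, at 1.01 and 1.03, and 2 stressed libraries, S2 and S3, lay above all non-stressed ones. The difference of 0.14 had a p of 0.460 in a two-sided exact permutation test (adjusted 0.913 over 2 ratios). The log2 ratio of Cxcr4 to Ccr2 was -3.73 ± 1.11 and -3.56 ± 1.02 (SD, n = 5 each), a difference of 0.17 with an exact permutation p of 0.913 (adjusted 0.913). NS1 at -1.76, S2 at -2.40 and S1 at -2.54 stood above the other 7 libraries, of which S5 was highest at -3.97. The smallest p this test can give is 0.00794.

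**Figure D3:**
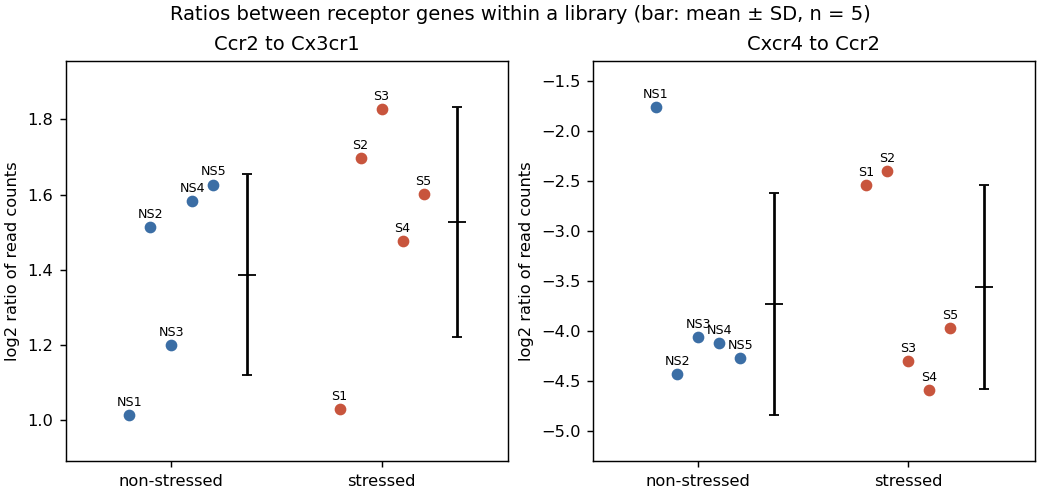
Log2 ratio of read counts of Ccr2 to Cx3cr1 and of Cxcr4 to Ccr2 (vertical axes) in each library, by group, with the mean and SD of 5 libraries as a bar. The groups overlap in both ratios, and NS1, S1 and S2 form the upper set of the ratio of Cxcr4 to Ccr2.

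For 3 of the marker lists of other blood cells, the libraries high in Ccr7 were also the highest. The 4 libraries high in Ccr7 (NS1, NS2, S1 and S2) were the 4 highest for the B cell list, for the T and NK cell list and for the neutrophil list. They shared 3 of the 4 highest libraries of the non-classical monocyte list and 3 of those of the endothelial list. They shared 2 for the platelet, erythroid, macrophage and classical monocyte lists, and 1 for the dendritic cell list and the smooth muscle and fibroblast list. The summed level of the 8 B cell markers, all with reads, was 78.9 to 399 CPM in the non-stressed and 100.2 to 239 CPM in the stressed libraries. The 12 T and NK cell markers, all with reads, summed to 23.1 to 141 CPM and 15.5 to 108 CPM, and the 10 neutrophil markers, all with reads, to 811 to 2588 CPM and 1081 to 2374 CPM. For Cxcr4, 2 of its 3 highest libraries were among the 3 highest of each of these lists, since NS2 was high in all 3 lists but had 100 CPM of Cxcr4. Taken over all 10 libraries, Ccr7 and the B cell list gave an r of 0.91 and a rho of 0.96 (adjusted permutation p 0.00858 and 0.00462). Without the 2 libraries farthest from the median B cell level, r was 0.93 (adjusted permutation p 0.0356). Over all 10, the T and NK cell list gave 0.90 and 0.78 (adjusted permutation p 0.0371 and 0.119). The neutrophil list gave 0.85 and 0.84 (adjusted permutation p 0.0403 and 0.0683). Within the 6 libraries low in Ccr7, its level and the B cell level gave an r of 0.83 and a rho of 0.89, with a permutation p of 0.0418 for r and an adjusted p of 0.544. In the same 6 libraries the neutrophil list gave an r of 0.80 and a rho of 0.77 (adjusted permutation p 0.559), and the T and NK cell list an r of 0.45 and a rho of 0.14 (adjusted permutation p 0.819). There the non-classical monocyte list gave an r of 0.68 and a rho of 0.71, and the endothelial list 0.70 and 0.60 (adjusted permutation p 0.726 for both). Over all 10 libraries the non-classical list gave 0.87 and 0.90 (adjusted permutation p 0.0371 and 0.0271). The endothelial list gave 0.54 and 0.60 over all 10 (adjusted permutation p 0.336 and 0.371). Within the 7 libraries low in Cxcr4, its r was -0.49 with the B cell list and -0.47 with the neutrophil list (adjusted permutation p 0.819 for both). The part of these cells in the levels of Ccr7 and Cxcr4 was not tested.

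**Figure D4:**
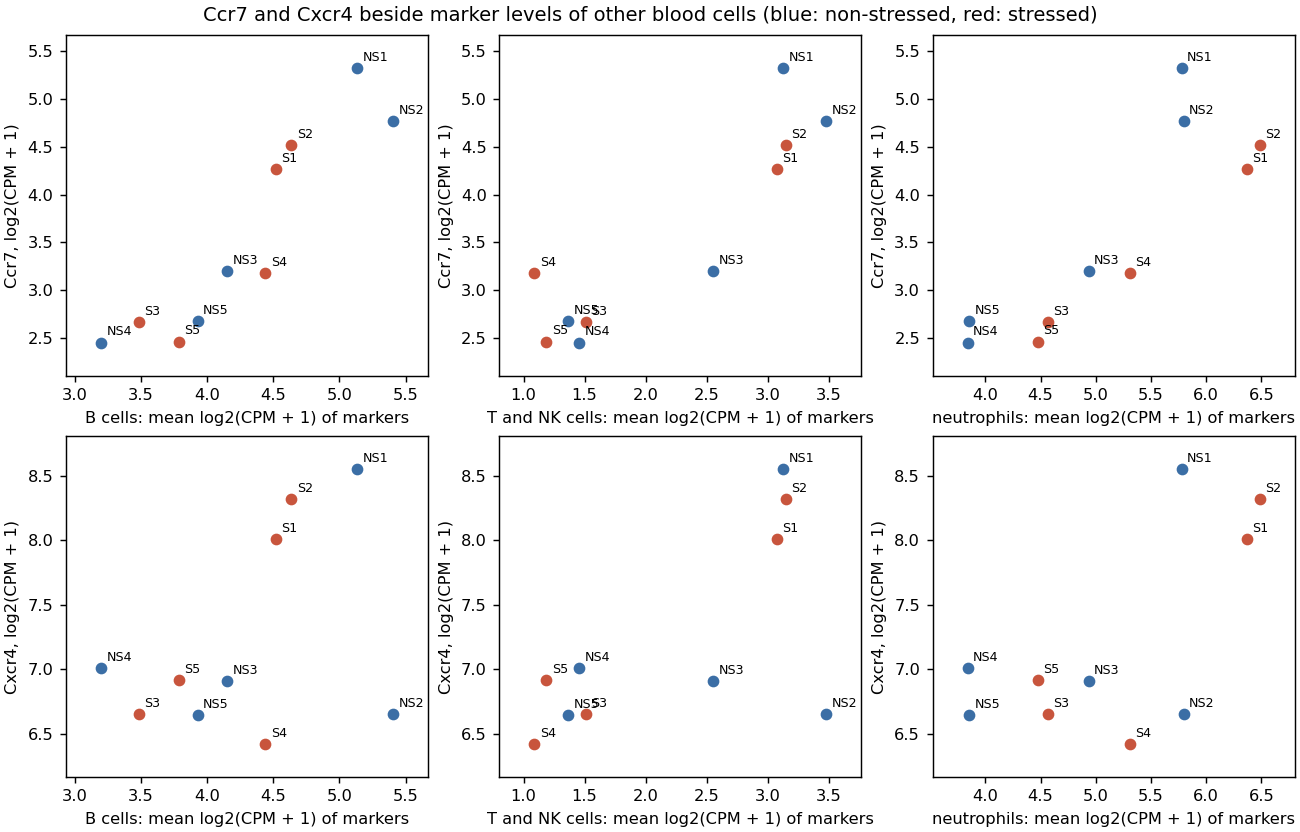
Level of Ccr7 (top) and Cxcr4 (bottom) as log2(CPM + 1) against the mean log2(CPM + 1) of B cell, T and NK cell and neutrophil markers, 1 point per library (blue non-stressed, red stressed). The 4 libraries high in Ccr7 are the 4 highest on each horizontal axis, and NS2 is high on each horizontal axis but low in Cxcr4.

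Of the 15 pairs among the 6 genes, 3 were tested over all 10 libraries and 12 only in the larger of 2 library clusters. Of the 15, 0 passed an adjusted permutation p of 0.05 (0 also at an unadjusted p under 0.05). Of the 66 pairs of a gene with a marker list, 0 of the 21 over all libraries and 0 of the 39 within a cluster passed, with 4 and 3 under an unadjusted p of 0.05. The remaining 6 pairs, of Ccr2, Cx3cr1 and Ccr1 with the non-classical monocyte and the T and NK cell lists, were left out under the rule on clusters. Both lists split the libraries 5 and 5, and these genes did not split them. For Cxcr4, Ccr7 and Ccrl2 the same lists were tested within the gene's own larger cluster. The split of the list can still run through that cluster, as NS3 does for Ccr7. Among the 21, Cx3cr1 and the endothelial list gave an r of 0.77 and a rho of 0.84 (adjusted permutation p 0.0866 and 0.0683, r of 0.78 without the 2 libraries farthest from the median). Of the 12 genes in that list, 7 were too low to test, 3 of them with 0 reads, so its level rests on few genes. Ccr1 and the platelet list gave an r of 0.81 and a rho of 0.64 (adjusted permutation p 0.0761 and 0.306, r of 0.51 without the 2 libraries). The clusters were defined by a rule chosen after the data were seen, and without it pairs did pass: 1 of the 15, Ccr2 with Cxcr4, and 5 of the 66, Ccr7 with the non-classical monocyte, B cell, T and NK cell and neutrophil lists and Ccr1 with the non-classical monocyte list.

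Among 10078 genes, those most like each receptor gene over the 10 libraries were named by Pearson's r of log2(CPM + 1), as a description. Klf3, a Krüppel-like transcription factor, had an r of 0.98 with Cxcr4, followed by the kinase Stk17b at 0.94 and the transcription factor Ets2 at 0.94. Ccr7 was matched by Gabbr1 at 0.97, the lymphoid transcription factor Ets1 at 0.97 and the kinase Prkd2 at 0.96. Ccrl2 was matched by the kinase Sik1 at 0.96, Etfbkmt at 0.93 and the choline kinase Chka at 0.90. For Ccr2 these were Plcl1 at 0.95, Utp11 at 0.94 and Slc25a53 at 0.94. For Cx3cr1 they were Pcolce at 0.93, Zfp251 at 0.93 and Rnase6 at 0.91, and for Ccr1 Phf13 at 0.95, Lfng at 0.95 and Ptpn12 at 0.93. These genes were selected for a high r out of 10078, over libraries that differ in marker levels.

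Of 14 genes for ligands of these receptors, 6 were tested, 5 with a value above 0 and 1 below, and 0 were called by edgeR (0 also at an unadjusted p under 0.05, and 0 by DESeq2). Their median log2 fold change was 0.19. Ccl6 and Ccl9, ligands of Ccr1 made by myeloid cells, were the most abundant, with 855 ± 65.9 and 922 ± 50.7 CPM of Ccl6 and 632 ± 106 and 700 ± 53.1 CPM of Ccl9 in non-stressed and stressed libraries (SD, n = 5 each). Mif, which also binds Cxcr4, had 11.2 ± 1.84 and 13.2 ± 1.84 CPM, and Ccl3 had 8.49 ± 5.41 and 12.9 ± 7.28 CPM (SD, n = 5 each). Ligands of the 2 most abundant receptors were scarce in the sorted cells. Ccl2 ranged from 1.85 to 25.9 CPM, and Cx3cl1, the ligand of Cx3cr1, had 24 reads in all libraries together. Ccl7, Ccl8, Ccl19 and Ccl21a had 0 reads. Ccl2 and Cx3cl1, and the genes at 0, were chosen for mention after their values were seen.

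Of 19 other chemokine receptors, 12 were tested, 2 with a value above 0 and 10 below, and 0 were called by edgeR (0 also at an unadjusted p under 0.05, and 0 by DESeq2). Their median log2 fold change was -0.30. The number above 0 ranged from 1 to 7 over the settings tried, with more genes tested where no filter was used. The chemerin receptor Cmklr1 had 57.9 ± 15.6 and 49.3 ± 13.9 CPM in non-stressed and stressed libraries (SD, n = 5 each), and the neutrophil receptor Cxcr2 had 51.7 ± 43.8 and 55.4 ± 46.0 CPM. Cxcr5, the receptor that brings B cells into follicles, had 12.95 ± 7.84 and 9.33 ± 4.66 CPM. Ccr1 and Ccr2 lie in a receptor cluster on chromosome 9, in which levels were unequal, with medians of 1938 CPM for Ccr2, 48.6 CPM for Ccr1 and 1.17 CPM for Ccr3. Ccr3 was chosen for mention as the gene between Ccr1 and Ccr2 besides Ccr1l1.

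All 32 genes of receptor signalling and desensitisation were tested, 18 above 0 and 14 below, with a median log2 fold change of 0.02, and 0 were called by edgeR (0 by DESeq2). Gnai2, the Gi subunit most used by leukocytes, had 1251 ± 55.2 and 1267 ± 44.8 CPM. Grk2, a kinase that desensitises receptors, had 901 ± 32.7 and 933 ± 29.2 CPM (SD, n = 5 each). Pik3cd, a phosphoinositide 3-kinase of leukocytes, and Arhgef1, an exchange factor for RhoA, had log2 fold changes of 0.02 (SE 0.060) and 0.05 (SE 0.059). An unadjusted p under 0.05 was reached by 3 of the 32: Rgs14 (log2 fold change 0.17, edgeR adjusted p 0.874), Pik3r5 (0.17, adjusted p 0.874) and Grk3 (-0.26, adjusted p 0.836), chosen for mention after their values were seen. The groups did not overlap for Rgs14, an inhibitor of Gi signalling, at 144 to 166 CPM in non-stressed and 167 to 188 CPM in stressed libraries. That is 3.12% of the list beside 1.11% of all genes, and the 3 genes under an unadjusted p of 0.05 stand beside 5.53% of all genes.

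**Figure D5:**
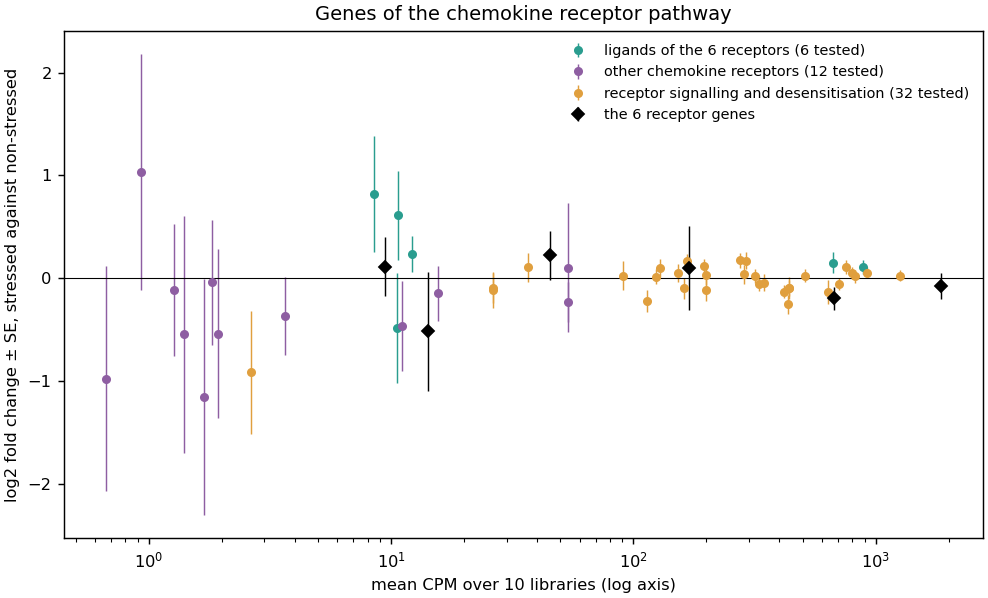
Log2 fold change ± SE of stressed against non-stressed libraries (vertical axis) against the mean CPM over 10 libraries (horizontal log axis) for tested ligands, other chemokine receptors, signalling genes and the 6 receptor genes. Genes of high level, such as Gnai2, lie near 0 with small errors, and 0 genes of the 4 sets were called.

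Genes of monocyte subsets were set beside Ccr2 and Cx3cr1. Over the 10 libraries Ccr2 gave an r of -0.0040 and a rho of -0.31 with the classical monocyte list (adjusted permutation p 0.991 and 0.708). Cx3cr1 and the non-classical list were left out under the rule on clusters, since that list splits the libraries 5 and 5. Over all 10 libraries, without that rule, they gave an r of 0.054 and a rho of 0.18 (adjusted permutation p 0.987 and 0.890). Of 11 classical monocyte genes, 8 had a value above 0 and 1 was called: Chil3, a chitinase-like protein of myeloid cells, rose from 1196 ± 189 to 3722 ± 450 CPM (SD, n = 5 each; log2 fold change 1.64, SE 0.111, edgeR adjusted p 4.14e-06). It was higher in 5 of 5 stressed libraries than in every non-stressed one, and it was the only gene called over all genes by edgeR. Of the 11, 5 had an unadjusted p under 0.05 in the edgeR test, beside 5.53% of all genes. The median log2 fold change of the 11 was 0.26. Markers of erythroid cells and platelets leaned the same way, as did 5 of 7 macrophage and 7 of 10 neutrophil markers tested. Others leaned the other way. Below 0 were 8 of 8 B cell, 10 of 12 T and NK cell, 6 of 8 dendritic cell and 5 of 5 endothelial markers tested. The endothelial count includes Vwf and Kdr, with log2 fold changes of -0.008 (SE 0.309) and -0.22 (SE 0.881), both within their errors of 0. In each of these marker lists 0 were called by edgeR. At an unadjusted p under 0.05 were 3 dendritic cell, 1 macrophage and 1 neutrophil marker, and 0 B cell, T and NK cell and endothelial markers. All 7 erythroid markers had a value above 0 (median 0.72, 0 called by edgeR, 5 at an unadjusted p under 0.05), with summed levels of 1333 to 2781 CPM in non-stressed and 1172 to 5528 CPM in stressed libraries. Of all genes, 50.9% were above 0 and 5.53% were at an unadjusted p under 0.05. All 9 platelet markers were above 0 (median 0.41, 0 called, 0 at an unadjusted p under 0.05), with sums of 70.0 to 255 and 116 to 268 CPM. The part of these other cell types in the levels of the monocyte genes was not tested. Groups did not overlap for 3 of the 11, Chil3, Vcan and Fn1, beside 1.11% of all genes. The list was chosen with earlier results of these data known, so its counts are a description and not a test of classical monocyte genes. Plac8 and F13a1, also among the most abundant, had log2 fold changes of -0.12 and 0.26 (adjusted p 0.940 and 0.950). The 95% interval of the fold ended at 1.15 for Ccr2 and began at 2.65 for Chil3. Of 12 non-classical monocyte genes, 3 had a value above 0 and 0 were called (1 at an unadjusted p under 0.05, 0 by DESeq2), with a median of -0.10. Itgal, Ace and Spn had log2 fold changes of -0.14, -0.24 and -0.21, near that of Cx3cr1, and Nr4a1, the transcription factor non-classical monocytes need, had 0.07.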

How the data were processed

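The authors deposited raw, unnormalized read counts of genes in 10 libraries. Per the labels' protocols, RNA came from sorted cells and the library kit was stranded. The submitters' processing notes name Trimmomatic, STAR, featureCounts and mm10. Of versions, annotation and strand setting nothing is given in the sources used here, so genes that overlap or are antisense are uncertain. Symbols, coordinates and exon lengths were taken from GENCODE M21, in which 48144 of 48526 identifiers matched. The other 382 held 0.0250% to 0.0344% of counts and were kept. No pair of libraries within a group was a duplicate (chi-square per degree of freedom 21.2 to 69.9).

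Counts were fitted with edgeR 4.0.16 in R 4.3.3 (filterByExpr, minimum count 10; TMM factors of 0.99 to 1.01; group as the only term), with quasi-likelihood tests and Benjamini-Hochberg adjustment at 0.05 over 13334 genes. Between 99.8% and 99.9% of a library's counts fell in those genes. Printed CPM values use plain totals, and fits and correlations TMM-scaled sizes. On simulated counts of 12736 genes for stressed against non-stressed libraries, the test recovered 32.8%, 64.2% and 66.7% of genes changed 1.5-fold, 2-fold and 4-fold, with 2 false calls. Ratios were compared by exact permutation over 252 assignments, neighbours in the order by exact sign flips, and correlations by 100000 permutations (scipy 1.17.1).

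The members and lists were chosen with earlier results of these data known. Named were the 6 genes, list members that passed the threshold, the 4 most abundant tested of each pathway or subset list, 3 of a marker list, Cdh5, Kdr and Nos3, and the 3 genes most like each receptor (average log2 CPM of 1 or more, no pseudogenes or predicted genes without a name). Some genes that this rule takes are not reported here. Exceptions are said to be so; Tek, Cldn5 and Emcn were also chosen after their values were seen. Alternatives were DESeq2 1.42.0, voom of limma 3.58.1 with sample weights, upper-quartile or RLE factors, 2 other low-count filters, the replicate block, a Ddx3y covariate and leaving out each library. Chosen after the data were seen were the motifs, the rule that splits libraries into clusters, neutrophil and B cell levels as covariates, and leaving out the 3 or the 4 libraries of highest neutrophil level. Leaving out NS1, S1 and S2 was also tried and is not used, since they were picked by their Cxcr4 values.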

Additional observations from a re-analysis of the deposited data

Results flagged for a closer look

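Of 16 sets of 5 libraries examined (6 genes and 2 ratios in each group), 2 held a library far from the other 4, and chance gives about 1 in 20. Both rest on the same Cxcr4 value of NS1 and are 1 observation. Its Cxcr4 level of 376 CPM stood apart from the next non-stressed library, NS4, at 127 CPM, a gap of 0.9 of the group's range. Its log2 ratio of Cxcr4 to Ccr2 of -1.76 stood apart from the next, -4.06, by 0.863 of the range. The gap must pass 0.71 of the range for 5 libraries. Without NS1 the log2 fold change of Cxcr4 was 0.65 in place of 0.10. Among the stressed libraries, S1 and S2 had similarly high Cxcr4 levels of 257 and 318.5 CPM and were not apart from each other.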

How the results depend on the processing

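Over 22 alternatives, 0 of the 6 genes was called. Cx3cr1 stayed below 0 (log2 fold change -0.29 to -0.13, smallest edgeR, DESeq2 or limma adjusted p 0.440) and Ccr1 above 0 (0.08 to 0.39). The sign of the other 4 depended on the setting, and the cause was not tested. With the neutrophil level as a covariate, Ccr2 gave 0.008 and Cxcr4 -0.36, and Ccr7 came nearest to a call (-1.08, edgeR adjusted p 0.0558). With the B cell level as a covariate, Ccr7 gave 0.043. Leaving out the 3 libraries of highest neutrophil level (S2, S1 and NS2) gave 0.078 for Ccr2, -0.83 for Cxcr4, -1.25 for Ccr7 and -0.25 for Ccrl2. Leaving out 4 (NS1 too) gave -0.07, -0.19, -0.013 and -0.047, so the choice between 3 and 4 libraries moved Ccr7 and Cxcr4 most. Leaving out each library in turn gave -0.23 to 0.65 for Cxcr4, where leaving out NS2, NS3, NS5, S1 or S2 turned the sign, -0.89 to 0.058 for Ccr7 (turned without NS1) and -0.066 to 0.33 for Ccrl2 (turned without NS2). The log2 ratio of Ccr2 to Cx3cr1 gave -0.005 in libraries without Ddx3y reads and 0.05 to 0.26 over left-out libraries. That of Cxcr4 to Ccr2 gave -0.24 in libraries without Ddx3y reads, -0.73 and -0.14 without the 3 and the 4 libraries, and -0.12 to 0.66 over left-out libraries.

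Genes called higher over all genes, 1 at first, numbered 14 with DESeq2, 7 without a filter, 6 with the neutrophil and 4 with the B cell covariate, 2 with limma-voom and 1 to 2 over left-out libraries (2 without NS5). Those called lower, 0 at first, numbered 12 with the neutrophil covariate, 5 with DESeq2, 3 without a filter and 1 without the 4 libraries. Of the classical monocyte genes, 3 were called with DESeq2, 2 with limma-voom, without a filter and with either marker covariate, and 1 to 2 over left-out libraries. Of the non-classical genes, 1 was called with the neutrophil covariate. Ignoring the split into clusters, 1 pair of genes and 5 pairs of a gene and a marker list passed.

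The deviations of same-numbered libraries correlated at 0.17 to 0.21 for 4 numbers and at -0.07 for number 3, and both libraries of each number were alike in holding over 100 reads of Ddx3y or none. Since not every correlation passed 0.1 and no label says that a number is shared, the numbers were not taken as pairs. Of the 10 libraries, 5 correlated best with their own number. With the replicate block, 3 genes were called higher and 1 lower over all genes, 2 classical monocyte genes were called, and 0 of the 6 receptor genes.

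Precision did not follow reads alone. The 95% interval of the fold ran from 0.296 to 1.65 for Ccr7 (3862 reads in all libraries), 0.706 to 1.66 for Ccrl2 (2409 reads), 0.817 to 1.66 for Ccr1 (12125 reads) and 0.586 to 1.97 for Cxcr4 (43486 reads). True changes inside these intervals are not excluded by these libraries.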
